A study of Homo sapiens with 8 samples.

Results

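The genes described here are those of the Reelin pathway: RELN, which encodes the secreted ligand, VLDLR and LRP8, which encode its receptors, DAB1, which encodes the intracellular adaptor, and PAFAH1B1, which encodes LIS1. They are 5 of the 47591 genes of a single expression table and were taken from it by gene symbol. All 5 had a mean normalized count of at least 10 over the 8 libraries and so were among the 18947 genes tested. The set was selected on its values in these lines, above all the level of RELN in the edited line and its fold change against the controls, so the values and fold changes of the 5 genes are given as a description, without a test. Genes of the wider pathway were tested, in lists that were also written with earlier results of these data known.

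The study compared SH-SY5Y cells, a human neuroblastoma line derived from the neural crest, by RNA-seq of polyadenylated RNA. G2 cells (n = 3) had been edited by CRISPR/Cas9 with a guide RNA directed at PRPF40B, which encodes a splicing factor. Scramble (SCR) cells (n = 3) had received the same machinery with a control guide, and WT cells (n = 2) had not been edited. The edited cells were selected with puromycin and grown from limiting dilution, so an effect of the PRPF40B guide and a difference of the founding cells cannot be told apart, and the libraries labelled as biological replicates measure the spread within a line. In bulk RNA, a change in the number of cells of a type and a change in RNA per cell cannot be told apart either.

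Reelin is a large glycoprotein of the extracellular matrix that Cajal-Retzius cells secrete in the developing cortex, where it guides the radial placement of migrating neurons. It binds the lipoprotein receptors VLDLR and ApoER2, the product of LRP8. The receptors cluster, SRC family kinases phosphorylate DAB1 bound to their tails, and DAB1 then recruits adaptors that act on adhesion and the cytoskeleton before it is ubiquitinated and degraded. LIS1 binds dynein and is a subunit of a platelet-activating factor acetylhydrolase. Its loss causes lissencephaly, and LIS1 can bind phosphorylated DAB1.

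RELN lies on the minus strand of chromosome 7, and its start is preceded by a CG-rich region. Since RELN is the member that differs most between the lines, the 250 bases before its start are shown, from the RefSeq promoter table (GRCh38.p14, chr7:103989659-103989908, minus strand, 5′ to 3′). The last base shown is the one before the transcription start, and capitals mark the GC box GGGCGG, the core bound by SP1.
RELN upstream region: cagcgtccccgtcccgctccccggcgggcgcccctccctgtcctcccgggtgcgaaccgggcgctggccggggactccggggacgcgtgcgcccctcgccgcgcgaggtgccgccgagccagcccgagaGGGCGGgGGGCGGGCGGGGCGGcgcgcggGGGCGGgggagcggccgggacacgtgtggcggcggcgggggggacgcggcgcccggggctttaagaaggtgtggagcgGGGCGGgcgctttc
This window held 43 CG dinucleotides and 83.2% G and C bases, and 1.05% of the 35116 promoters of the table were at least as rich in G and C over the same length. The GC box occurred 6 times, counted on both strands with overlaps allowed, against 4 times before PAFAH1B1, 3 times before LRP8 and 2 times before VLDLR. A GC box was present in 42.6% of all promoters, and 4.15% held at least 5. The CRE core TGACG, the Snail E-box CAGGTG and the T-box motif AGGTGTGA, searched on both strands, had no match in the RELN window and matched in 21.2%, 17.5% and 0.786% of promoters.

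Each library held between 59804395 and 81080747 counts before normalization. Ribosomal RNA took 4.96% and 4.75% of the WT values but 0.384% to 0.587% of those of the G2 and SCR libraries. PRPF40B, the targeted gene (GSHG0009006), was measured at 840.2, 841 and 918 normalized counts in G2 replicates 1 to 3, at 1686, 1672 and 1669 in SCR, and at 1972 and 1668 in WT. The G2 libraries were below all controls, with a log2 fold change of -0.95 against SCR (standard error 0.08, limma adjusted p = 7.4e-07) and of -1.07 against WT (standard error 0.09, limma adjusted p = 7.89e-07), so the transcript was lower in the edited line but still present.

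RELN (GSHG0040974, chr7:103471789-103989658 in hg38, 65 exons in the MANE Select transcript) was the member with the largest difference. Its normalized counts, that is counts divided by a size factor of the library, were 6966, 7365 and 6886 in G2 replicates 1 to 3. In SCR they were 416, 323 and 379, and in WT 297 and 326. Every G2 library lay far above the 5 control libraries, while SCR and WT overlapped. The means of G2, SCR and WT were 7072 ± 257, 373 ± 47.1 and 311 ± 20.4 (SD, n = 3, 3 and 2), that is 19.0 times as high in G2 as in SCR and 22.7 times as high as in WT. On the log2 scale, with 1 added to each value, the difference was 4.25 (standard error 0.09) against SCR and 4.50 (standard error 0.10) against WT, and SCR exceeded WT by 0.25 (standard error 0.10). These comparisons share libraries, since G2 serves in both of the first and WT in both of the last. A non-coding entry that overlaps the 3′ part of RELN, LOC101927870, had a mean of 31.9 normalized counts, or 1.11% of the RELN mean.

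VLDLR (GSHG0043126, chr9:2621787-2660056), the receptor that in mice carries the stop signal for migrating neurons, was also higher in G2, by a smaller factor. It stood at 1117, 1316 and 1295 normalized counts in G2, at 722, 679 and 732 in SCR and at 656 and 709.9 in WT. The lowest G2 library exceeded the highest control, as for RELN and for 22.8% of all tested genes, and SCR and WT overlapped. The means were 1243 ± 109, 711 ± 28.2 and 683 ± 38.4 (SD, n = 3, 3 and 2). G2 was 1.75 times as high as SCR (log2 difference 0.80, standard error 0.08) and 1.82 times as high as WT (0.86, standard error 0.09), and SCR differed from WT by 0.06 (standard error 0.09). The overlapping antisense entry VLDLR-AS1 had a mean of 28.3 normalized counts, 3.14% of that of VLDLR.

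LRP8 (GSHG0002470, chr1:53242364-53328070), which encodes ApoER2, the receptor that also modulates NMDA receptors at synapses, did not separate the lines. It was measured at 1737, 1754 and 1601 normalized counts in G2, at 1734, 1671 and 1799 in SCR and at 1726 and 2183 in WT. All 3 lines overlapped, and WT replicate 2 was the highest library. The means were 1697 ± 83.8, 1735 ± 64.5 and 1955 ± 323 (SD, n = 3, 3 and 2). The log2 difference was -0.03 (standard error 0.09) for G2 against SCR and -0.19 (standard error 0.10) for G2 against WT. SCR against WT gave -0.16 (standard error 0.10), which turned to 0.11 when the libraries were scaled to the same total and to 0.01 without WT replicate 2.

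DAB1 was listed only as a joint entry with its neighbour, DAB1 // OMA1 (GSHG0002507, chr1:56994778-58546797). In GENCODE 44, DAB1 and OMA1, which encodes a mitochondrial metalloprotease, overlap on the minus strand, so the value of this entry cannot be assigned to DAB1 alone. The entry stood at 395, 469.7 and 407 normalized counts in G2, at 315, 383 and 343 in SCR and at 286 and 230.3 in WT. The 3 lines did not overlap, as was the case for 28.6% of all tested genes. The means were 424 ± 40.0, 347 ± 34.0 and 258 ± 39.1 (SD, n = 3, 3 and 2), with log2 differences of 0.29 (standard error 0.12) for G2 against SCR, 0.72 (standard error 0.14) for G2 against WT and 0.43 (standard error 0.14) for SCR against WT.

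PAFAH1B1 (GSHG0017757, chr17:2593654-2685615) was the member with the highest level per length and, like LRP8, did not separate the lines. Its normalized counts were 6059, 5968 and 5487 in G2, 5568, 5524 and 5273 in SCR and 5200.0 and 5979 in WT. All 3 lines overlapped, with means of 5838 ± 308, 5455 ± 159 and 5589 ± 551 (SD, n = 3, 3 and 2). The log2 differences were 0.10 (standard error 0.07) for G2 against SCR, 0.06 (standard error 0.07) for G2 against WT and -0.03 (standard error 0.07) for SCR against WT. Neither difference from WT kept its direction: G2 against WT turned to -0.036 without WT replicate 1, and SCR against WT turned to 0.069 without WT replicate 2, to 0.24 when the libraries were scaled to the same total and to 0.0021 with a replicate block.

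**Figure D1:**
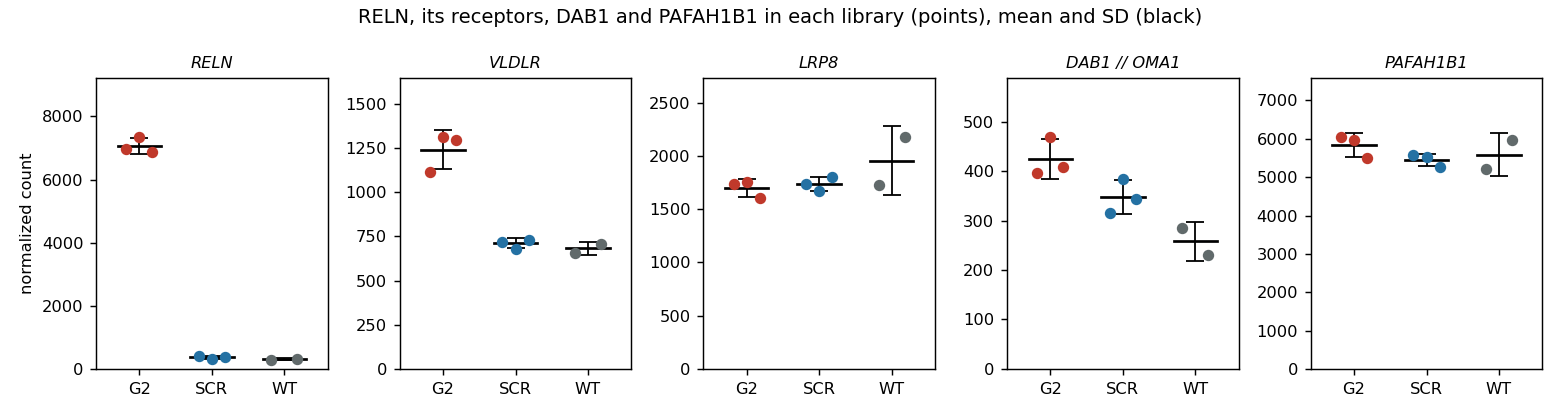
Normalized counts of the 5 entries (vertical axes, each from 0) in G2, SCR and WT; points are libraries, black bars the mean and SD of a line (n = 3, 3 and 2). RELN and VLDLR of G2 lie above all controls, at 6886 and 1117 or more, while LRP8 and PAFAH1B1 overlap in all lines.

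A fold change of at least 1.5 towards G2 was therefore reached by 2 of the 5 entries against SCR and by 3 of 5 against WT. Among all tested genes, 15.1% were called higher and 11.8% lower in G2 than in SCR, and 17.7% higher and 12.2% lower in G2 than in WT, by a fold change of at least 1.5 with an unadjusted p of at most 0.05. In both directions together 26.9% of genes were called against SCR and 29.9% against WT. Nothing is read from the members' count beside these shares, since the members were chosen with the values known.

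To compare genes with each other, the means were divided by the length of the MANE Select transcript. In control cells the ligand was the lowest of the 4 singly listed members. RELN stood at 31.8 ± 4.02 (SCR) and 26.6 ± 1.75 (WT) normalized counts per kb (SD, n = 3 and 2). VLDLR followed at 77.1 ± 3.06 and 74.1 ± 4.17 normalized counts per kb, LRP8 at 225 ± 8.37 and 254 ± 42.0, and PAFAH1B1 at 976 ± 28.5 and 1000.1 ± 98.5. Neighbours in this order lay further apart than their SDs. In G2 the order changed: RELN, at 604 ± 21.9 normalized counts per kb (SD, n = 3), stood above LRP8 at 220.3 ± 10.9 and VLDLR at 135 ± 11.9, and below PAFAH1B1 at 1045 ± 55.0. The ratio of ligand to VLDLR transcript per kb was thus 4.48 in G2, 0.413 in SCR and 0.359 in WT, and that of LRP8 to VLDLR was 1.63, 2.92 and 3.42. The order in each line was the same when lengths were taken over all annotated exons, a choice made after seeing the data, although the ratio of RELN to VLDLR was then 2.65 in G2, 0.245 in SCR and 0.212 in WT.

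**Figure D2:**
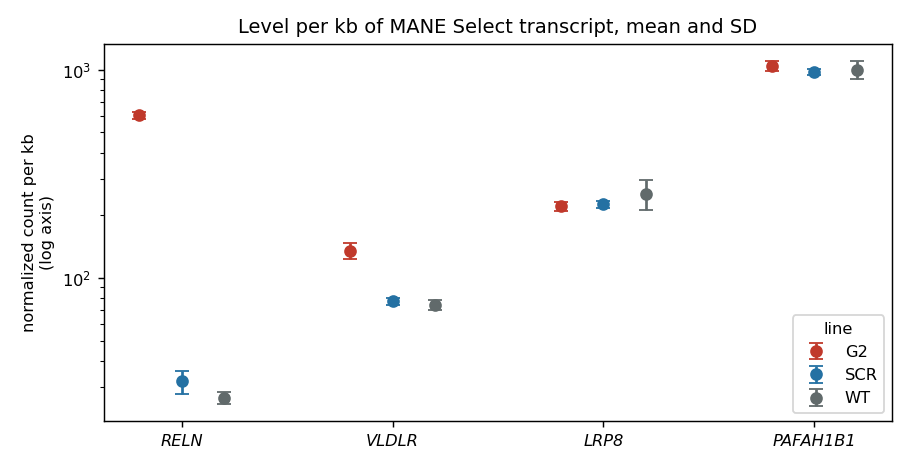
Mean level per kb of MANE Select transcript (log axis, normalized counts per kb) of the 4 singly listed members in G2, SCR and WT; bars are SD (n = 3, 3 and 2). RELN moves from the lowest of the 4 in SCR and WT to the second highest in G2, passing LRP8 and VLDLR, while PAFAH1B1 stays the highest.

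The genes most like each member were sought by Pearson's r over the 8 libraries, on log2 values and among 13064 other genes with a mean of at least 100. RELN was matched most closely by SH3GLB1, PLEKHA5, RASA3, CORO2A and CHRM2, the last encoding a muscarinic receptor, all with an r of 0.999. Its pattern was shared widely, since 211 genes (1.62%) had an r over 0.99, which with 8 libraries rests mainly on the distance between G2 and the controls. CHRM2, for example, had means of 511 ± 34.4, 88.1 ± 3.88 and 81.1 ± 7.52 normalized counts in the same 3 lines (SD, n = 3, 3 and 2), a log2 difference of 2.52 against SCR. VLDLR was closest to SPSB2 (r = 0.996), SLC37A1 (r = 0.996) and PACS1 (r = 0.993). LRP8 was closest to MDC1 (r = 0.994), PDGFRA (r = 0.980) and PCGF5 (r = 0.95), which like LRP8 had their highest mean in WT. The joint DAB1 entry was closest to FOSL1 (r = 0.972), PRX (r = 0.963) and NIT1 (r = 0.961), and PAFAH1B1 to TRPM7 (r = 0.960), DCAF10 (r = 0.948) and ZNF280D (r = 0.937).

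For the rest of the pathway, 121 genes were examined in 8 lists. These lists were written with earlier results of these data known, so their shares are given as a description. Of the 121 genes 110 passed the filter on low values, SPON1 and GRIN2C only through G2. In G2 against SCR 46 of these were called, 35 higher and 11 lower, which is 41.8% beside 26.9% of all tested genes. In G2 against WT 44 were called, 34 higher and 10 lower, or 40.0% beside 29.9%. In SCR against WT 16 were called, or 14.5% beside 16.3%. The median over the 110 genes was 0.22 on the log2 scale against SCR and 0.29 against WT, where the medians of all tested genes were -0.01 and 0.00. The called genes were spread unevenly, with most in the extracellular part of the pathway and fewer among the kinases, the ubiquitin ligases and the dynein partners.

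**Figure D3:**
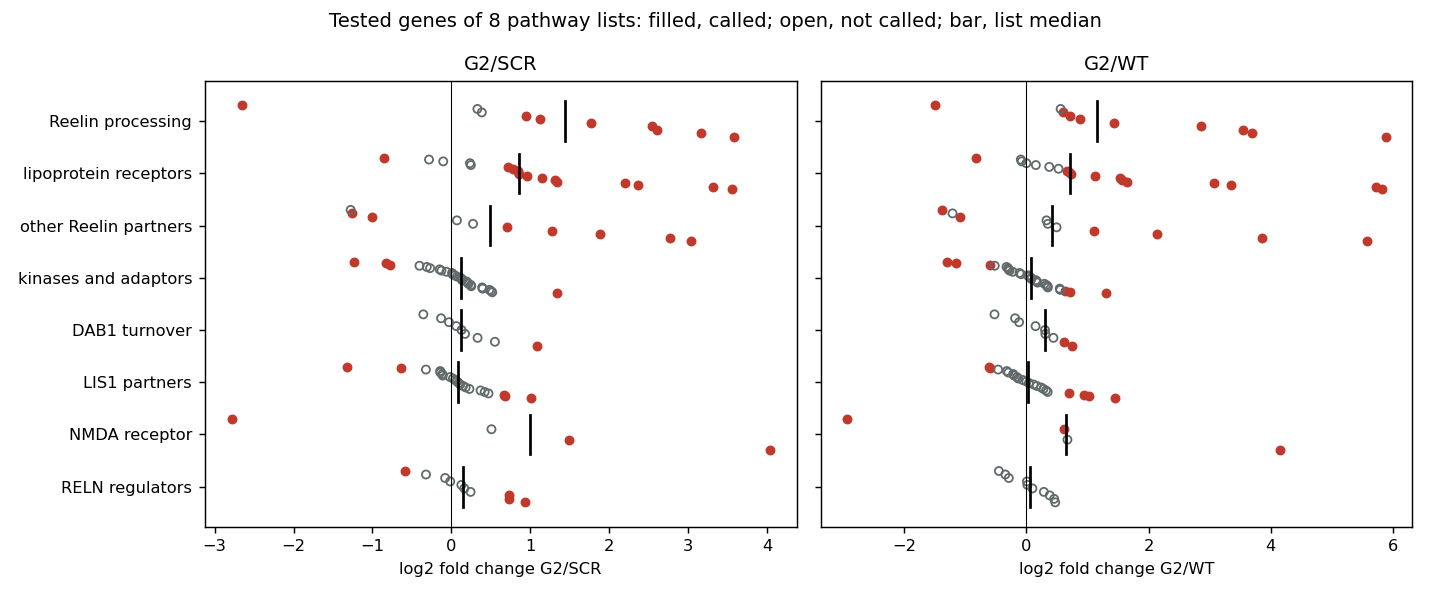
Log2 fold change (horizontal axis) of each tested gene in 8 lists of the pathway, G2/SCR on the left and G2/WT on the right; filled points passed the fold and p thresholds, open ones did not, and bars are list medians. In G2/SCR the medians of the Reelin processing and lipoprotein receptor lists lie at 1.44 and 0.85, those of the kinase, DAB1 turnover and LIS1 lists at 0.11, 0.13 and 0.08.

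Among enzymes that cut Reelin or act on those that do, 8 of 10 were called in G2/SCR, 7 higher and 1 lower, and their median was 1.44. In G2/WT 9 of 10 were called, 8 higher and 1 lower, with a median of 1.16. In SCR/WT 4 of the 10 were called, 3 of them higher. These are 80%, 90% and 40%, beside 26.9%, 29.9% and 16.3% of all tested genes. PLAT, the tissue plasminogen activator, was measured at 4884, 5322 and 5199 normalized counts in G2, at 589.9, 542 and 590.3 in SCR and at 435 and 445 in WT. All 3 G2 libraries stood far above the controls, and PLAT rose by 3.16 (standard error 0.07, limma adjusted p = 1.64e-11) against SCR and by 3.54 (standard error 0.08, limma adjusted p = 1.08e-11) against WT on the log2 scale. FURIN, a proprotein convertase, rose by 1.12 (standard error 0.07, limma adjusted p = 5.44e-08) and 1.44 (standard error 0.08, limma adjusted p = 1.66e-08). ADAMTS4, a metalloprotease, rose by 0.94 and 0.71 (standard errors 0.07, limma adjusted p = 2.08e-07 and 6.77e-06).

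ADAMTS3, the protease best known for inactivating Reelin near its N terminus, stood at 2182, 2022 and 1960.0 normalized counts in G2, at 315, 363 and 330.3 in SCR and at 118 and 211 in WT. It rose by 2.61 against SCR (standard error 0.17, limma adjusted p = 9.19e-08) and by 3.69 against WT, but was also called in SCR/WT, where it was higher by 1.08 (standard error 0.19, limma adjusted p = 0.000902). ADAMTS14 was the enzyme that fell in G2, by 2.65 against SCR and by 1.49 against WT, although it was higher in SCR than in WT by 1.16. ADAM10 and ADAM17, the sheddases of many membrane proteins, differed between G2 and SCR by 0.38 and 0.33 and did not reach the fold threshold. Against WT they were higher by 0.56 and 0.60, and ADAM17 was called (limma adjusted p = 0.000379).

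The receptors of the lipoprotein receptor family and their other ligands moved in the same direction as VLDLR more often than not. Of 18 tested genes 14 were called in G2/SCR, 13 higher and 1 lower (LRP3), at a list median of 0.85, and 12 against WT, 11 higher and 1 lower, at a median of 0.72. In SCR/WT 6 were called, 5 higher and 1 lower. These are 77.8%, 66.7% and 33.3%, beside the same 26.9%, 29.9% and 16.3% of all genes. APOE, the apolipoprotein that VLDLR and ApoER2 also bind, was measured at 646, 678 and 739 normalized counts in G2, at 70.4, 52.6 and 85.4 in SCR and at 58.4 and 76.4 in WT. It rose by 3.31 against SCR (standard error 0.18, limma adjusted p = 2.48e-08) and by 3.34 against WT (standard error 0.21, limma adjusted p = 6.97e-08), with SCR and WT overlapping. CLU, or clusterin, another ligand of both receptors, stood at 5791, 5928 and 5644 normalized counts in G2, at 1138, 1158 and 1087 in SCR and at 756 and 631 in WT and was called higher in all 3 comparisons.

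The endocytic receptor LRP1 stood at 407 ± 69.7 normalized counts in G2, 161 ± 31.2 in SCR and 133 ± 57.0 in WT, and rose by 1.33 against SCR (standard error 0.22, limma adjusted p = 0.000367). LRP10 rose by 1.31 and 1.53 and LRP12 by 0.85 and 1.12 against SCR and WT.

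Of 10 other proteins reported to bind Reelin or to act with it at the membrane, 7 were called against SCR, 5 higher and 2 lower, and 6 against WT, 4 higher and 2 lower, and in SCR/WT 2 were called, both higher. These are 70%, 60% and 20%, beside 26.9%, 29.9% and 16.3% of all genes. CDH2, which encodes N-cadherin, an effector of Reelin in neuronal adhesion, had 49944, 51086 and 48874 normalized counts in G2, 13644, 14031 and 12887 in SCR and 11052 and 11628 in WT. It rose by 1.89 (standard error 0.05, limma adjusted p = 6.12e-11) and 2.14 (standard error 0.06, limma adjusted p = 5.19e-11). Both chains of integrin α3β1, a further Reelin-binding receptor, were higher: ITGB1 by 1.28 against SCR and 1.10 against WT, and ITGA3 by 2.77 and 3.85, with ITGA3 also higher in SCR than in WT by 1.09. The ephrin EFNB2 and the receptor EPHB2 went the other way. EFNB2 fell by 1.26 against SCR and by 1.08 against WT, from 8411 ± 265 normalized counts in SCR to 3506 ± 138 in G2 (SD, n = 3 each), and EPHB2 fell by 1.00 and 1.38.

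The kinases and adaptors that act with and below DAB1 showed few calls. Of 27 tested genes 4 were called in G2/SCR, 1 higher (RAP1A) and 3 lower (SRC, CDK5R2 and PIK3R2), which is 14.8% beside 26.9% of all genes. In G2/WT 6 were called, 3 higher and 3 lower, or 22.2% beside 29.9% of all genes. In SCR/WT limma called 0, beside 16.3% of all genes, while 12 had an unadjusted p under 0.05. FYN and SRC, the kinases best known to phosphorylate DAB1, were lower in G2, while the related YES1 was higher by 0.50 and 0.72 and called against WT. FYN was measured at 2226, 2147 and 2136 normalized counts in G2, at 2702, 2745 and 2635 in SCR and at 2662 and 2648 in WT. Its log2 differences were -0.31 (standard error 0.06, limma adjusted p = 0.000534) and -0.29 (standard error 0.06, limma adjusted p = 0.00178) and did not reach a fold change of 1.5. SRC fell by 0.83 against SCR (standard error 0.07, limma adjusted p = 6.68e-07), and its mean was 2.22 times as high in WT as in G2 (limma adjusted p = 1.03e-07).

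RAP1A, a small GTPase that Reelin signalling activates through CRK and RAPGEF1, had 12739.9, 12379 and 12768 normalized counts in G2 against 5043, 5568 and 4436 in SCR and 5154 and 5113 in WT. It rose by 1.34 (standard error 0.07, limma adjusted p = 2.08e-08) and 1.30 (standard error 0.08, limma adjusted p = 8.12e-08). CRK, CRKL and RAPGEF1 themselves differed by 0.01, -0.13 and 0.19 in G2/SCR and were not called. CDK5R2, which encodes the p39 activator of CDK5, a kinase of a parallel pathway in neuronal migration, fell by 1.23 against SCR and by 1.30 against WT, while CDK5 differed by 0.14 and 0.04. The DAB1 relative DAB2 was at 0 in every library, which allows up to 3 fragments in each.

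**Figure D4:**
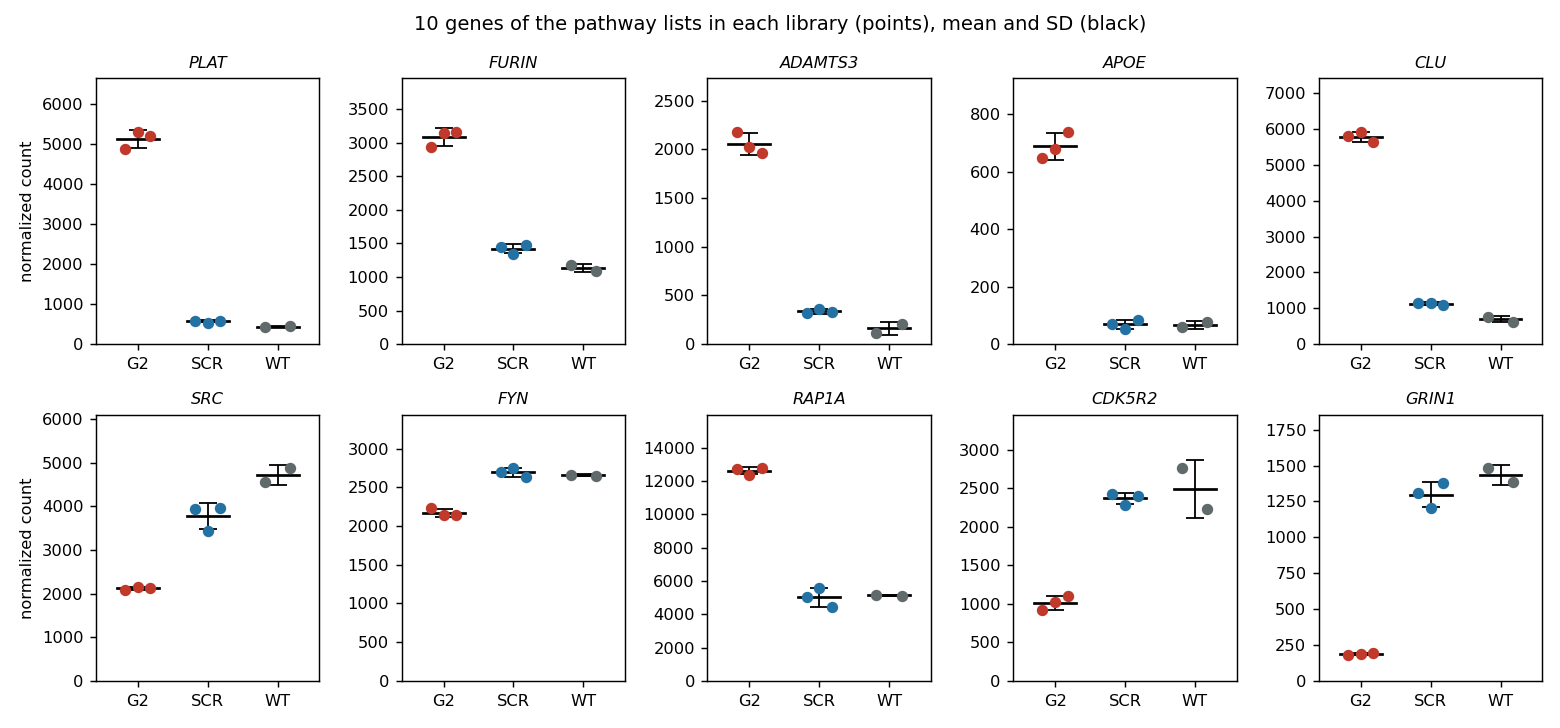
Normalized counts (vertical axes, each from 0) of 10 genes of the pathway lists in G2, SCR and WT; points are libraries, black bars the mean and SD of a line (n = 3, 3 and 2). PLAT, FURIN, ADAMTS3, APOE, CLU and RAP1A of G2 lie above all controls, and SRC, FYN, CDK5R2 and GRIN1 below them, with GRIN1 at 183 to 192 in G2.

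Of the 9 genes for the ubiquitin ligases that limit DAB1, 1 was called against SCR and 2 against WT, and limma called 0 in SCR/WT, where 6 had an unadjusted p under 0.05. The shares in the G2 comparisons are 11.1% and 22.2%, beside 26.9% and 29.9% of all genes. SOCS3, of the family of adaptors for the CUL5 ligase, rose by 1.08 against SCR (standard error 0.13, limma adjusted p = 2.35e-05) and by 0.74 against WT (standard error 0.14, limma adjusted p = 0.00101), and CBL was the other gene called against WT, higher by 0.62. Without WT replicate 1, the count in G2/WT was 1. CUL5 differed by 0.17 and 0.15 and was not called.

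Of 22 partners of LIS1, 5 were called in G2/SCR, 3 higher and 2 lower, or 22.7% beside 26.9% of all genes. In G2/WT 6 were called, 4 higher and 2 lower, or 27.3% beside 29.9%. In SCR/WT 2 were called, both higher, or 9.09% beside 16.3%. NDEL1, which carries LIS1 to dynein, rose by 0.66 (standard error 0.06, limma adjusted p = 2.34e-06) and 0.95 (standard error 0.07, limma adjusted p = 3.02e-07), from 1898 ± 41.7 normalized counts in SCR and 1562 ± 77.4 in WT to 3008 ± 116 in G2. The dynein light chain DYNLT3 rose by 1.01 and 0.69, and the microtubule plus-end protein CLIP1 by 0.68 and 1.03. DCX, encoding doublecortin, fell by 1.33 against SCR and was not called against WT (-0.46, limma adjusted p = 0.0752). The catalytic subunits that share the acetylhydrolase with LIS1 stood close to the controls or below them. PAFAH1B2 differed by 0.05 (standard error 0.06, limma adjusted p = 0.569) and 0.04, and PAFAH1B3 by -0.14 (standard error 0.10, limma adjusted p = 0.258) against SCR and by -0.61 (standard error 0.11, limma adjusted p = 0.000604) against WT, where the higher of the WT libraries reached 24252 normalized counts and the other 17972.

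Among NMDA receptor subunits, whose currents Reelin enhances through ApoER2, only 4 of 8 listed genes passed the filter. GRIN1, the obligatory subunit, was measured at 183, 187 and 192 normalized counts in G2, at 1311, 1206 and 1377 in SCR and at 1481 and 1384 in WT. It fell by 2.78 against SCR (standard error 0.08, limma adjusted p = 1.38e-10) and by 2.93 against WT (standard error 0.09, limma adjusted p = 2.13e-10). GRIN2C stood at 96.2 ± 21.3 normalized counts in G2 and at 5.53 ± 3.17 in SCR (SD, n = 3 each), and exceeded WT, where it was at the floor of 9 recovered counts per library, at least 9.57-fold. GRIN2D rose by 1.49 against SCR only, with a log2 difference of 0.67 against WT (limma adjusted p = 0.141). DLG4, the scaffold PSD-95, differed by 0.51 and 0.61 and passed the fold threshold against WT.

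Of 12 reported regulators of the RELN gene, 10 passed the filter. In G2/SCR 4 were called (40%, beside 26.9% of all genes), with HDAC1 (0.93), SP1 (0.73) and TET1 (0.72) higher and SNAI1 (-0.59) lower on the log2 scale. In G2/WT limma called 0, while 7 had an unadjusted p under 0.05, and HDAC1, SP1 and TET1 were higher by 0.47, 0.38 and 0.46. Without WT replicate 2 the count in G2/WT was 1. DNA methyltransferase 1, DNMT1, differed by 0.13 and -0.45, and DNMT3A by 0.16 and 0.10.

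Cajal-Retzius markers were examined because these cells are the main source of Reelin in the cortex. Of 9 markers 5 passed the filter, LHX5, CALB2 and EBF2 were at 0 in every library, and LHX1 did not exceed 6.12 normalized counts. TP73 was at 434 to 536 normalized counts in G2, 325 to 388 in SCR and 542 to 642 in WT. EBF3, a transcription factor, had 275, 288 and 273 normalized counts in G2, with all SCR and WT libraries at 9.93 or less. Against the floor of 9 recovered counts per library EBF3 of G2 was at least 34.2-fold higher (SCR) and at least 27.7-fold higher (WT) than the controls. No p is given for EBF3, which passed the filter on low values only through G2. NHLH2 also passed it only with G2 included, at 7.53 to 29.6 normalized counts in G2 and 3.02 to 14.9 in the controls. CXCR4, a chemokine receptor found in many cell types, rose against SCR by 0.84 and was higher than in WT by 0.49, and NHLH1 was lower by 1.04 against SCR (limma adjusted p = 0.00838) and by 0.69 against WT (limma adjusted p = 0.084). The summed level of the list was 12239 to 13639 normalized counts in G2, 7059 to 7638 in SCR and 8780 to 10066 in WT, nearly all of it CXCR4.

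SH-SY5Y cultures hold neuroblast-like N-type and substrate-adherent S-type cells. Markers of both, in lists written with earlier results known, moved between the lines together with RELN and VLDLR. Of 10 N-type markers 8 fell against SCR and 8 against WT (80% each), with medians of -0.80 and -1.32. GATA3 lay the other way, with every G2 library above all controls, as for 22.8% of all tested genes. Its log2 differences were 0.37 and 0.28, and it was not called. Their summed level was 98204 to 108159 normalized counts in G2, 192728 to 208037 in SCR and 213202 to 226583 in WT. CHGA, encoding chromogranin A, fell by 3.08 and 3.43, DBH, the enzyme that makes noradrenaline, by 1.74 and 2.00, ISL1 by 1.39 and 1.62 and GATA2 by 0.80 and 1.03 (limma adjusted p of 1.98e-07 or less in G2/SCR). TH, the first enzyme of the pathway, was at 26.5 normalized counts or less in all libraries.

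Of 9 tested S-type markers 7 rose against SCR and 7 against WT (77.8% each), with medians of 1.31 and 1.86; PRRX1, one of the 7, passed the filter on low values through G2 only. The other 2, TWIST1 and S100A6, were lower in G2 and were not called. Their log2 differences were -0.39 and -0.45 against SCR and -0.34 and -0.51 against WT. The summed level of the list was 247756 to 253320 normalized counts in G2, 124048 to 132505 in SCR and 93715 to 108000.0 in WT, most of it from VIM, which encodes vimentin and rose by 1.33 and 1.86. SNAI2 rose 2.48-fold and 2.83-fold and NOTCH2 by 0.89 and 0.90 (limma adjusted p = 1.45e-06 and 0.000105 in G2/SCR). FN1 was at 0 in 7 of the 8 libraries and at 2.27 normalized counts in SCR replicate 3. The part of these markers' differences in those of RELN and VLDLR was not tested.

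Most genes around RELN and VLDLR on their chromosomes were not called. Of the 20 nearest genes of RELN with a mean of at least 100, 10 on each side, 3 were called against SCR, 1 higher and 2 lower, and 4 against WT. That is 15% and 20%, beside 23.6% and 27.8% of all genes with such a mean, and their median was -0.18 in both comparisons. The nearest, PSMC2 and ORC5, differed by 0.14 (standard error 0.06, limma adjusted p = 0.0763) and -0.37 (standard error 0.06, limma adjusted p = 0.000462) in G2/SCR and were not called. LHFPL3, the second gene on the ORC5 side, fell by 1.47 and 1.46, and SYPL1, at a distance of 2101 kb, rose by 1.57 and 1.28.

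VLDLR lies near the end of the short arm of chromosome 9, with 4 such genes on that side, so it had 14 neighbours. Of these 3 were called in each G2 comparison, 1 higher and 2 lower, and the medians were -0.23 and -0.17. SMARCA2 and PUM3, the nearest, differed by -0.22 (standard error 0.09, limma adjusted p = 0.0695) and 0.12 (standard error 0.05, limma adjusted p = 0.0913) in G2/SCR. With up to 20 genes on each side the share called in G2/SCR was 12.5% around RELN and 33.3% around VLDLR. Among all genes with a mean of at least 100 it was 23.6%, so the wider VLDLR window lay above that share. It held 24 neighbours, of which 8 were called, 5 higher and 3 lower.

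**Figure D5:**
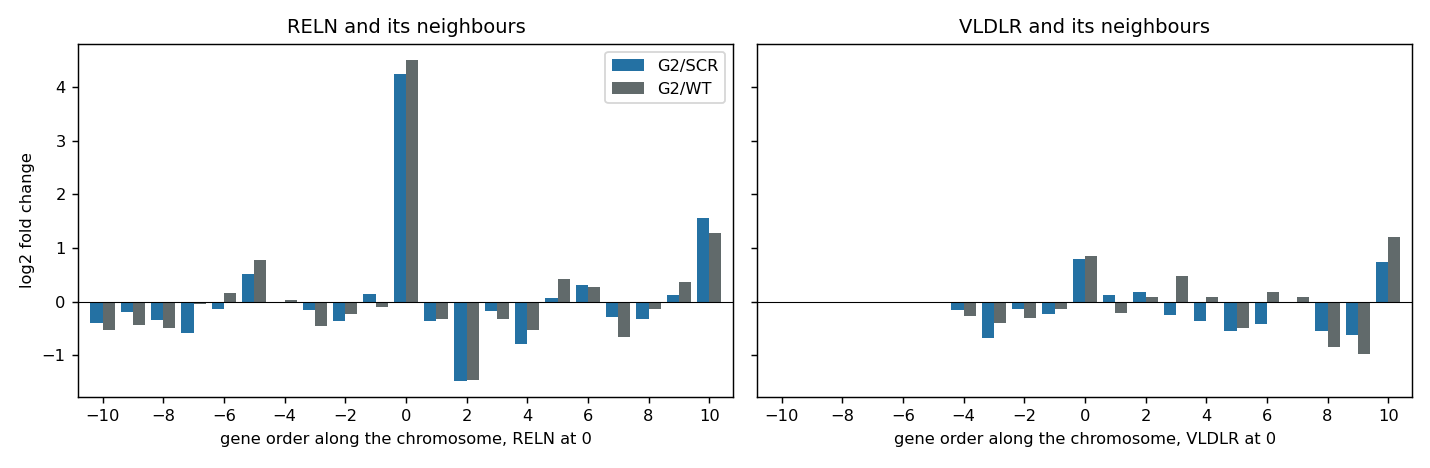
Log2 fold change (vertical axis) of RELN, VLDLR and up to 10 neighbours on each side with a mean of at least 100, by gene order (horizontal axis, the member at 0); blue bars are G2/SCR, grey bars G2/WT. RELN stands highest at 4.25 and 4.50, and VLDLR at 0.80 and 0.86 is passed on its right-hand side by JAK2 in G2/WT, at 1.20.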

How the data were processed

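RNA-seq was measured in 8 libraries of polyadenylated RNA (stranded mRNA preparation, paired 75-base reads). The authors mapped reads to hg38 with STAR, counted them per gene of the FAST DB annotation with featureCounts of Subread 1.5.0 and normalized the counts with DESeq2. The strand setting of the counting is not given in the sources used here. The values they deposited are a signal, the count of a gene divided by the size factor of its library, neither scaled to length nor on a log scale. Libraries were grouped by their labels.

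All values of a library were whole multiples of 1 step (100%, tolerance 0.01). These recovered counts were taken as depth, although in WT replicate 2 the step was too close to 1 for a check. Small recovered counts were mostly multiples of 3 (70.7% to 75.6% per library), so 9 recovered counts, about 3 fragments, served as the floor. Floors cover counting error only.

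The main fit was limma 3.58.1 in R 4.3.3 (lmFit, eBayes with trend) on log2(value + 1), over the 18947 genes whose mean was 10 or more, with a mean per line over all 8 libraries. A gene counted as called when it passed a fold change of 1.5 at an unadjusted p of 0.05 or less, the thresholds of the study's methods; printed p-values are Benjamini-Hochberg adjusted over all tested genes, and fold changes on this scale understate changes of low genes. Nothing says that replicates came from separate clones, so the spread is that between these libraries. The fit was also run on simulated counts. These had the same spread setting for all genes and few changed genes, unlike these data, so no error rate is drawn from them. edgeR 4.0.16 and DESeq2 1.42.0 on the recovered counts of G2/SCR were alternatives, since for WT the counts could not be checked. Other alternatives were pseudocounts of 0.5 and 10, no filter or a mean of at least 100, libraries scaled to the same total, TMM factors, the 2 compared lines alone, a replicate block, leaving out each library, an adjusted p of at most 0.05, a fold change of at least 2, and windows of 5 and 20 neighbours.

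The members, the 8 pathway lists and the 3 lists of cell markers were chosen with earlier results of these data known. Named genes are, per list, up to 4 with a mean of at least 100 called against SCR and against WT with the same sign, but not between SCR and WT, with the largest smaller fold change. The paralogues DAB2, PAFAH1B2 and PAFAH1B3, the kinases SRC and FYN, the nearest neighbours of RELN and VLDLR and the genes most alike each member were also named. Other list genes and the neighbours LHFPL3, SYPL1 and JAK2 were named after their values were seen. A few list genes are counted but not reported here by name. Exon lengths and gene overlaps are from GENCODE 44, and the upstream sequence is from RefSeq.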

Additional observations from a re-analysis of the deposited data

How the results depend on the processing

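The log2 differences of RELN and VLDLR between G2 and each control kept their direction under every alternative, at 4.15 to 4.33 and 0.71 to 0.88 in G2/SCR and at 4.44 to 4.69 and 0.80 to 1.05 in G2/WT. Scaling all libraries to the same total moved the median of all genes by most, from -0.01 to -0.10 in G2/SCR, from 0.00 to 0.19 in G2/WT and from 0.01 to 0.28 in SCR/WT, and changed the share of called genes that were higher from 56.2% to 47.5%, from 59.3% to 75.7% and from 65.6% to 90.6%. With it the members' differences became -0.12 (LRP8) and 0.0063 (PAFAH1B1) in G2/SCR, 4.69 (RELN), 1.05 (VLDLR), -0.0088 (LRP8), 0.90 (DAB1 entry) and 0.25 (PAFAH1B1) in G2/WT, and 0.53 (RELN), 0.33 (VLDLR), 0.11 (LRP8), 0.71 (DAB1 entry) and 0.24 (PAFAH1B1) in SCR/WT, where PRPF40B turned from -0.11 to 0.16. Leaving out each library in turn gave -0.36 to -0.025 for LRP8 and -0.036 to 0.17 for PAFAH1B1 in G2/WT, and in SCR/WT -0.33 to 0.0066 for LRP8, -0.13 to 0.069 for PAFAH1B1 and -0.23 to 0.0069 for PRPF40B. In each of these the extremes came from leaving out a WT library. LRP8 in G2/SCR ranged from -0.059 to 0.0097, the latter without G2 replicate 3.

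A mean of at least 100, which tests fewer genes, left 3088 genes called in G2/SCR, 3633 in G2/WT and 1723 in SCR/WT, against 5088, 5657 and 3097. A fold change of at least 2 left 2951, 3176 and 1491, and among the pathway genes 28, 27 and 9 in place of 46, 44 and 16. On the recovered counts of G2/SCR, edgeR called 5093 genes and DESeq2 4973.

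The replicate numbers of the sample titles, which differ from the numbers in the library names, showed no pairing of the libraries. A block by the numbers in the library names was not fitted. Deviations of same-numbered G2 and SCR libraries from their line means correlated at -0.13, 0.05 and 0.15, and not every library correlated best with its own number. With the replicate block 5059, 5644 and 3057 genes were called in the 3 comparisons and 46, 42 and 15 pathway genes, and the block moved no member's difference by more than 0.04.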
